A study of Xenopus laevis with 5 samples.

Results

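Claudins, the epithelial adhesion gene epcam and the protease gene prss8 were followed in testes of Xenopus laevis after exposure to simazine, a chlorotriazine herbicide. Every gene probe of the array whose accession belongs to cldn6.1, cldn6.2, epcam, prss8 or another numbered claudin was taken, with both homeologs, the .L and .S copies that the allotetraploid genome of this frog carries. That gave 28 of 43653 gene probes and 13 of 8263 named genes, with 19 probes for 11 claudins, 7 for epcam and 2 for prss8. cldn6.1, cldn6.2, epcam and prss8 were singled out because they were lower in simazine testes on these same arrays, so all values of the 13 genes are given as a description, without a test.

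The simazine group was male frogs kept for 90 days in water with 100 µg/L of simazine, and the control group was male frogs kept as long in water with 0 µg/L. Exposure began at the tadpole stage NF 46. There were 3 simazine arrays and 2 control arrays, 1 testis sample each, on one-colour Agilent arrays. The series text counts testes and neither it nor the labels say whether each was from another animal, so the spread behind the p-values is one between samples and may be technical. The study asked how simazine alters gene expression in developing males.

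Claudins are membrane proteins that span the cell surface and join with claudins of the neighbouring cell into the strands of tight junctions, which seal the gaps between epithelial cells and set which ions pass. In the testis, tight junctions between Sertoli cells close off the germ cells from the blood. epcam encodes a surface glycoprotein of epithelial cells that associates with claudins, cldn7 in particular in mammals. prss8 encodes prostasin, a membrane-anchored serine protease first described in Xenopus kidney cells as an activator of the epithelial sodium channel. In Xenopus, cldn6 transcripts are known from eggs and early embryos.

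Levels are log2 of the processed spot signal relative to the 75th percentile of the same array, so 0 is the brightness of a probe at that percentile. Differences are simazine minus control on the same log2 scale. A probe was tested if it was well above background on at least 2 of the 5 arrays and lay outside areas where the array surface was distorted, which held 25.5% of all gene spots. Of the 28 probes, 23 were tested, for 12 genes. The probe of cldn7.L, 1 of 2 probes of cldn6.1.L, 1 of 2 of cldn12.L and 1 of 4 of epcam.S lay in distorted areas, and 1 of 2 of cldn1.S was not well above background on any array.

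The 75th percentile of the signal ran from 1564 to 6693 over the 5 arrays, and 69.1% to 85.1% of spots were well above background. Simazine 2 and control 1 shared slide 1, and the other arrays shared slide 2, so each slide gives its own difference between the groups. The scanner software marked 42.6% of spots on simazine 2 and 44.0% on control 1 as non-uniform or outliers, against 5.78% to 10% on slide 2. Of the 28 probes, 1, 12 and 0 were marked on simazine 1, 2 and 3, and 19 and 7 on control 1 and 2. Marked spots were kept. The brightest probe of epcam, another epcam.S probe, the brightest probe of cldn6.2.S, the undistorted probe of cldn6.1.L and the probe of cldn7.L were marked on both control arrays. The brightest epcam probe was also marked on simazine 1 and 2.

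The 2 cldn6 claudins stood far below control in simazine testes, on every probe and from both homeologs. The probe of cldn6.1.S had levels of -2.55, -2.0 and -2.73 on simazine 1, 2 and 3, against 5.19 and 3.45 on control 1 and 2. The undistorted probe of cldn6.1.L had -4.28, -3.76 and -4.61 on the simazine arrays, against 3.69 and 1.63 on the control arrays. On both probes the simazine arrays lay close together, while control 1 was brighter than control 2, by 1.74 and 2.07. The difference was -6.74 for cldn6.1.S (SE 0.588), which is 107.1-fold lower, and -6.88 for cldn6.1.L (SE 0.673), or 118-fold lower. Within slide 1 the cldn6.1.S difference was -7.18, and within slide 2 it was -6.09. The third cldn6.1 probe, in a distorted area, had levels of -5.57, -5.06 and -6.02 in simazine testes, against 0.20 and -0.51 in control testes.

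cldn6.2, a close relative of cldn6.1, had the same pattern with a smaller gap. Its brightest probe, for the .S copy, had -1.51, -1.15 and -1.25 on simazine 1, 2 and 3, against 3.0 and 3.23 on control 1 and 2. The probe of cldn6.2.L had -4.59, -3.84 and -4.25 on the simazine arrays, against 2.36 and 1.06 on the control arrays. The groups were apart on both, and the 2 control arrays differed by 0.22 for the .S copy and by 1.30 for the .L copy. The difference was -4.41 for cldn6.2.S (SE 0.291), or 21.3-fold lower, and -5.94 for cldn6.2.L (SE 0.492), or 61.2-fold lower. A second, dimmer cldn6.2.S probe gave -5.16. Over the 6 probes of both genes, slide 1 gave differences of -7.46 to -4.15 and slide 2 gave -6.09 to -4.60. Whether the probes of cldn6.1 and cldn6.2, or of .L and .S, also bind each other's transcripts was not tested, since the probe sequences were not used here.

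In the RefSeq map of the Xenopus_laevis_v10.1 assembly, cldn6.1 and cldn6.2 are direct neighbours on both the L and the S copy of their chromosome. The few genes measured around them had smaller differences. Within 10 coding genes on either side, 4 genes beside the L pair were tested (elob, paqr4, pelo and thoc6) and differed by 0.01 to 0.18, and 2 beside the S pair were tested, with bicdl2 at -0.48 and kremen2 at 0.25. Around all the genes cldn3, cldn4, cldn6.1, cldn6.2, cldn7, epcam and prss8, none of 32 tested neighbours passed an adjusted p of 0.05 (limma, two-sided, adjusted over all 26995 probes tested), against 0.4% of all probes. Of all genes tested 0.711% were called lower and none higher, so a count of 0 among 32 is near the background. Their differences ran from -0.57 to 1.14 with a median of -0.05. The highest, of slc2a4.L beside cldn7.L, had an SE of 1.75. The neighbours were looked at after the values of the claudins were known.

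**Figure D1:**
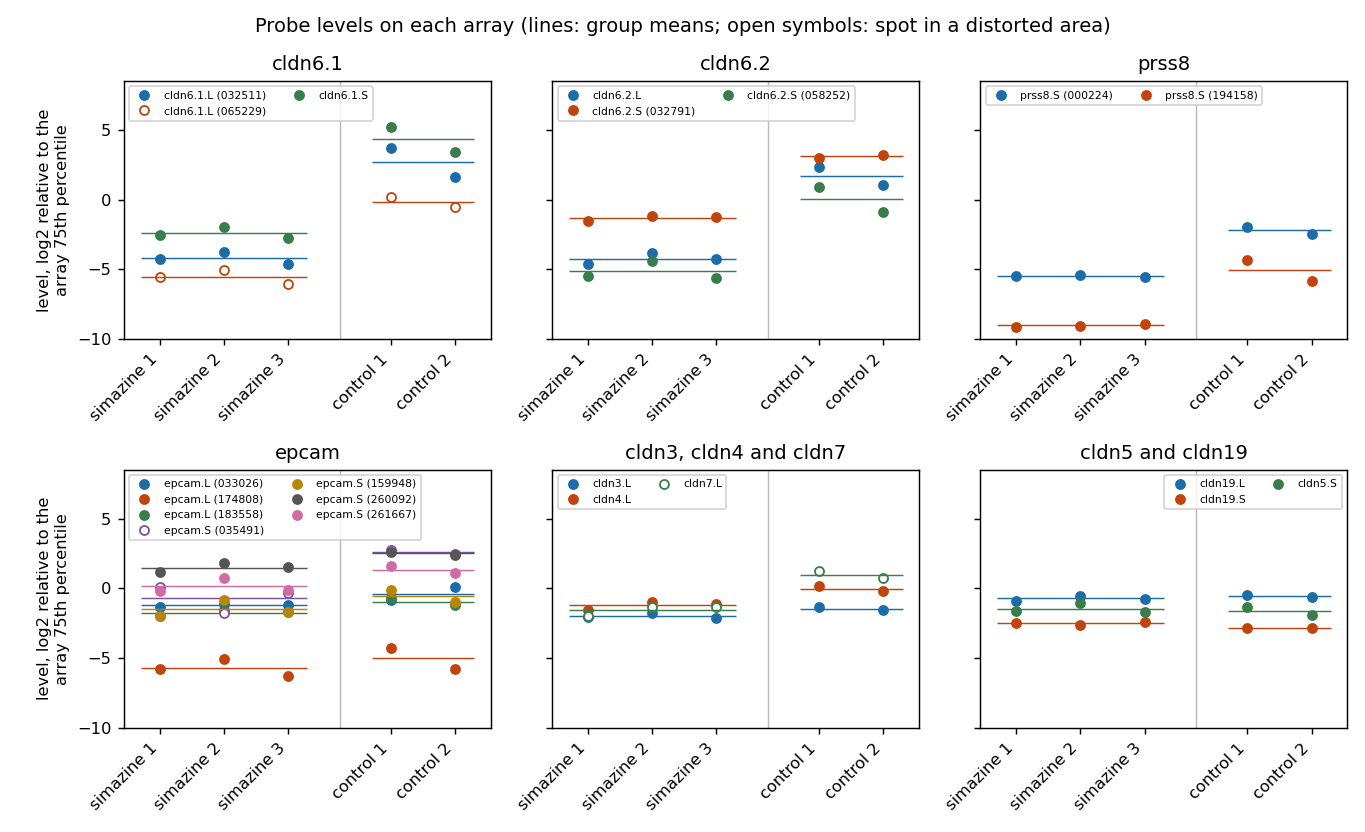
Level of each probe (log2 relative to the array's 75th percentile, vertical axis) on the 3 simazine arrays and the 2 control arrays, in 6 panels for cldn6.1, cldn6.2, prss8, epcam, the claudins cldn3, cldn4 and cldn7, and the claudins cldn5 and cldn19; short lines are group means and open symbols are spots in a distorted area. The simazine arrays lie below both control arrays for every probe of cldn6.1, cldn6.2 and prss8, and the groups mix for cldn5.

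The claudins cldn3, cldn4 and cldn7, known from epithelia, were lower in simazine testes by smaller amounts. cldn4.L, a claudin of tight epithelia, had -1.54, -1.01 and -1.12 on simazine 1, 2 and 3, against 0.13 and -0.21 on control 1 and 2. The groups did not overlap, and the difference was -1.18 (SE 0.321), with -1.14 within slide 1 and -1.12 within slide 2. cldn3.L, which lies directly beside cldn4.L in the RefSeq map, had -2.04, -1.79 and -2.12 in simazine testes, against -1.34 and -1.57 in control testes. These groups did not overlap either, at a difference of -0.52 (SE 0.289). cldn7.L had -1.98, -1.34 and -1.35 on the simazine arrays, against 1.21 and 0.77 on the control arrays, a difference of -2.55. Its only probe lies in an area where the surface of simazine 3 deviated by 0.68. The cldn7.L value was therefore left out of the reported counts and medians over tested probes and genes, but not of those over all 28 probes. The probe gave -2.55 on slide 1, which does not hold simazine 3, and -2.44 on slide 2.

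The claudins cldn5 and cldn19 had differences of less than 0.5 in either direction. cldn5, known in mice from the endothelium of vessels and from Sertoli cells, had -1.62, -1.04 and -1.68 on simazine 1, 2 and 3, against -1.37 and -1.90 on control 1 and 2. The groups overlapped, with a difference of 0.19 (SE 0.362). cldn19, a claudin of the kidney tubule in mammals, was split between its homeologs. cldn19.S had -2.49, -2.63 and -2.43 in simazine testes, against -2.85 and -2.83 in control testes, and was the one probe of the 28 that lay higher in every simazine testis, by 0.32. cldn19.L had -0.89, -0.52 and -0.75 on the simazine arrays, against -0.45 and -0.59 on the control arrays, and overlapped, at -0.20.

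The remaining claudins, cldn1, cldn12, cldn14 and cldn18, were dim, with all 7 probes at levels of -4.41 or lower on every array. None of the 7 separated the groups, and their differences ran from -0.61 to 0.65. With distorted areas kept, 20.3% of all probes did not overlap, so a count of 0 among 7 is near the background. cldn1.S, a claudin of the skin barrier in mammals, had -7.31, -6.55 and -6.58 on simazine 1, 2 and 3, against -6.71 and -5.70 on control 1 and 2. cldn18.L, known from lung and stomach in mammals, had -6.02, -5.66 and -7.10 on the simazine arrays, against -6.09 and -6.0 on the control arrays. Neither order is larger than the spread, and the cldn1.S difference was 0.16 within slide 1 and -1.24 within slide 2. cldn14.L had -8.26, -5.77 and -6.83 in simazine testes, against -6.81 and -7.68 in control testes, a difference of 0.30 (SE 0.779). cldn12 had a brighter tested probe for the .L copy with -5.12, -6.43 and -5.26 in simazine testes, against -6.74 and -5.25 in control testes. Its .S probe had -6.30, -5.05 and -6.35 on the simazine arrays, against -5.22 and -5.88 on the control arrays, so the homeologs of cldn12 differed in sign, at 0.39 and -0.35.

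Taking the brightest tested probe of each gene, 3 of 10 claudins were lower by 1 or more on the log2 scale (cldn6.1, cldn6.2 and cldn4). The same held for 3.24% of all 6892 genes tested. With epcam included, the members just inside this limit were cldn4 at -1.18 and epcam at -1.02, and the nearest outside it was cldn1 at -0.61. The median of the 10 claudins was -0.37, against -0.00 over all genes, and without cldn6.1 and cldn6.2 the median of the other 8 was -0.21. This comparison chose the genes, so nothing is read from this share.

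**Figure D2:**
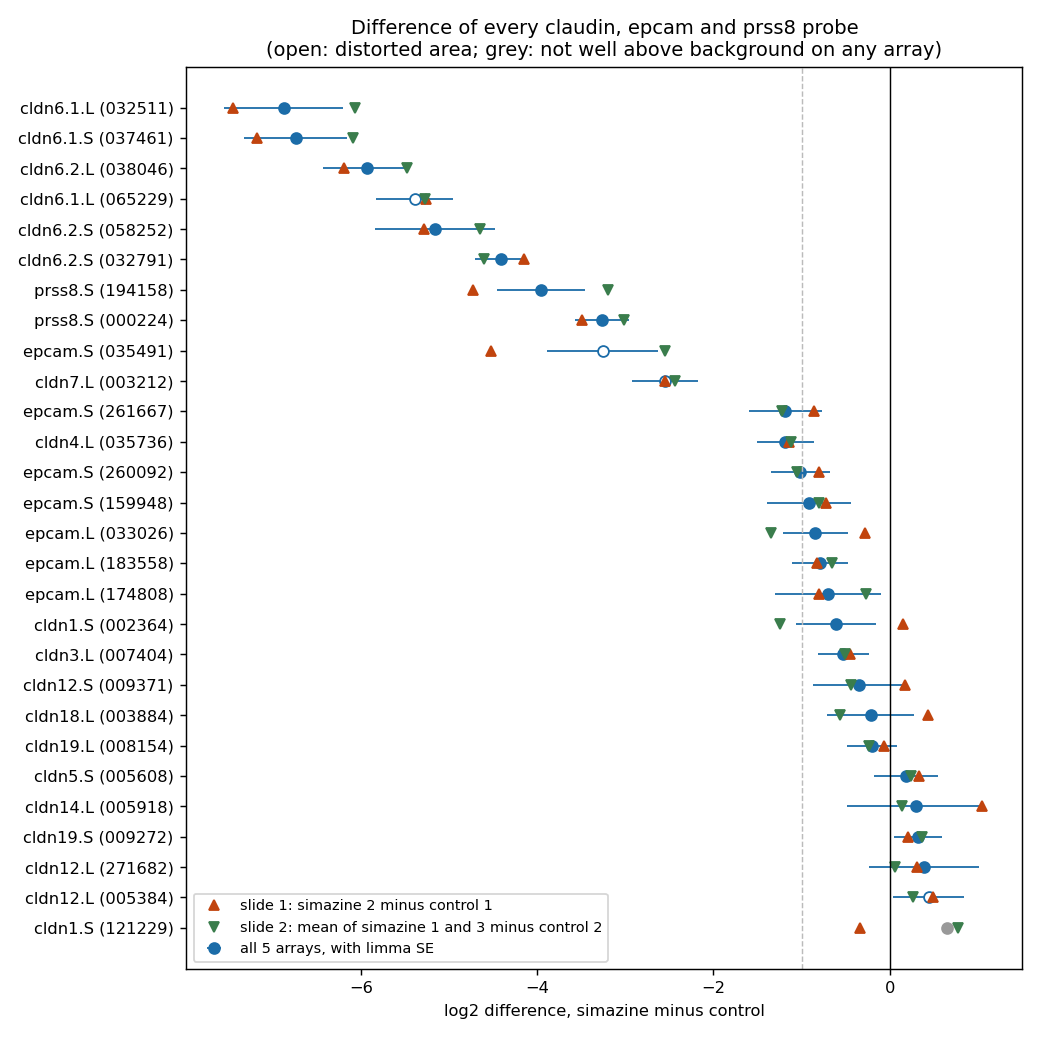
Difference of every claudin, epcam and prss8 probe (log2, simazine minus control, horizontal axis), over all 5 arrays (circles, with the limma SE as a line) and within slide 1 and slide 2 (triangles); open circles lie in distorted areas and the grey one was not well above background on any array. The cldn6.1 and cldn6.2 probes lie between -6.88 and -4.41, the undistorted epcam probes between -1.18 and -0.70, and the probes of cldn1, cldn5, cldn12, cldn14, cldn18 and cldn19 on both sides of 0.

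epcam was lower in simazine testes, by about 2-fold on its brightest probe. Its brightest probe, for the .S copy, had levels of 1.14, 1.83 and 1.50 on simazine 1, 2 and 3, against 2.64 and 2.37 on control 1 and 2. The groups did not overlap, and the difference was -1.02 (SE 0.335), or 2.02-fold lower, with -0.80 within slide 1 and -1.05 within slide 2. All 6 tested probes lay below 0, from -1.18 to -0.70, and 4 of the 6 kept the groups apart. Of all probes tested, 6.85% were lower without overlap. The 6 probes read the same samples and epcam was chosen from this comparison, so nothing is read from this count. The 3 probes of the .L copy gave -0.85, -0.79 and -0.70, and the 3 of the .S copy gave -1.18, -1.02 and -0.92. A seventh probe, for the .S copy, gave -3.26, with 0.13, -1.80 and -0.36 in simazine testes, against 2.73 and 2.43 in control testes. That spot lay in areas where the surface deviated by -1.33 on simazine 2 and by 0.64 on control 2, and none of the other 6 epcam probes gave such a difference. The deviation was only 0 on simazine 1 and 0.20 on control 1, where the levels were 0.13 and 2.73. With marked spots left out and distorted areas kept, the probe gave -2.55. How much of its difference comes from the surface was not tested.

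prss8 was measured for the .S copy only, with 2 probes. The brighter had -5.44, -5.43 and -5.55 on simazine 1, 2 and 3, against -1.94 and -2.48 on control 1 and 2. The simazine arrays lay close together (SD 0.0617, n = 3) and below both control arrays, and 2 of the 3 were well above background. The difference was -3.27 (SE 0.306), or 9.62-fold lower, with -3.50 within slide 1 and -3.02 within slide 2. The dimmer probe was not well above background on any simazine array and passed the filter through the control arrays. It was at least 5.51-fold lower in simazine testes, taking as the floor of each array the higher of this probe's own signal and the lowest signal among probes well above background.

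Over all 28 probes, the groups did not overlap for 17, of which 16 were lower in simazine testes. With distorted areas kept, 20.3% of all probes did not overlap and 10.6% were lower without overlap. Among the 23 tested probes 14 did not overlap and 13 of these were lower, against 14.4% and 6.85% of all probes tested. These genes too were chosen from this comparison, so nothing is read from these counts. In bulk tissue, fewer cells of a type and less RNA per cell cannot be told apart.

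Genes that work with claudins, epcam and prss8 in epithelia were taken from 4 lists covering tight junctions, adherens junctions and desmosomes, serine proteases with the sodium channel, and epithelial identity. Of these, 37 genes were tested and 0 were called in either direction (limma, adjusted p). Of all genes tested 0.711% were called lower and none higher, so a count of 0 among 37 is near the background. ctnna1 alone had an unadjusted p under 0.05. The median difference over the 37 genes was -0.05. These lists were drawn up with earlier results of these data known. Here and in the marker lists, a gene counts as on the array if a probe was matched to its name. Only 10012 of 36331 accessions were matched, so other listed genes may also have probes.

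Of 24 tight junction genes listed, 11 were on the array and 10 were tested, with a median of -0.04. No probe was matched by name to tjp1 or ocln, and cgnl1, the untested gene, gave 1.36 on a probe in a distorted area. Scaffold and polarity genes lay on both sides of 0. cgn, which encodes the junction plaque protein cingulin, had a difference of 0.51 (limma, adjusted p = 1), but -0.37 on a brighter probe in a distorted area. The polarity genes pard3 and pals1 had -0.50 and -0.63, and vasp, for an actin regulator at junctions, had -0.46.

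Of 20 genes of adherens junctions and desmosomes, 11 were on the array and 9 were tested, with a median of -0.27. No probe was matched by name to cdh1. The untested genes nectin2 and cdh2 gave -2.42 and 0.51 on probes in distorted areas. pkp3 had -0.30 on its tested probe and -1.47 on a brighter probe in a distorted area. ctnna1, for the alpha-catenin that ties cadherins to actin, had -7.88, -6.38 and -8.02 on simazine 1, 2 and 3, against -4.77 and -4.58 on control 1 and 2. The groups did not overlap, and the difference of -2.76 had an adjusted p of 0.314 in the limma fit. That probe was well above background on 1 simazine array, and a brighter ctnna1 probe in a distorted area gave 0.18. cdh3, the maternal cadherin of Xenopus eggs and embryos, had -4.01, -2.85 and -3.67 in simazine testes, against -2.19 and -2.65 in control testes, at a difference of -1.09 (limma, adjusted p = 1). jup, for plakoglobin, had -0.64 and ctnnd1, for p120 catenin, had -0.27. With marked spots left out, the brightest remaining ctnnd1 probe was another one, at 0.01.

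Of 18 serine protease and sodium channel genes, 11 were tested of 12 on the array, with a median of -0.02. furin, the untested gene, gave -1.68 on a probe in a distorted area. st14, for matriptase, a protease that acts with prostasin in mammalian epithelia, had 0.42, 0.27 and 0.14 on simazine 1, 2 and 3, against 0.10 and -0.21 on control 1 and 2. The difference was 0.33 (limma, adjusted p = 1). f2rl1, for a receptor cut by such proteases, had -0.73. The sodium channel subunit scnn1g had 0.42 and its regulator kinase sgk1 had -0.17. The brightest scnn1b probe gave -0.02 and other scnn1b probes gave 0.18 and -3.87, so 1 probe of that subunit disagreed with the rest. With marked spots left out, the brightest remaining probes of f2rl1 (0.50) and scnn1g (-0.49) were other ones, and sgk1 turned in sign (0.23).

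Of 25 epithelial identity genes, 10 were on the array and 7 were tested, with a median of -0.00. No probe was matched by name to krt8 or krt18, and the untested gene rab25 gave 0.91 on a probe in a distorted area. grhl1, for a transcription factor of epidermis, had -5.26, -6.43 and -3.16 in simazine testes, against -7.89 and -6.46 in control testes. The difference was 2.23, with an adjusted p of 1 (limma) and an SE of 1.03. A brighter grhl1 probe in a distorted area gave 0.41, and the brightest grhl1 probe with marked spots left out gave 0.67. esrp1, for an epithelial splicing factor, had -0.79, ezr, for ezrin, had 0.38, and the keratin gene krt7 had -0.23.

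**Figure D3:**
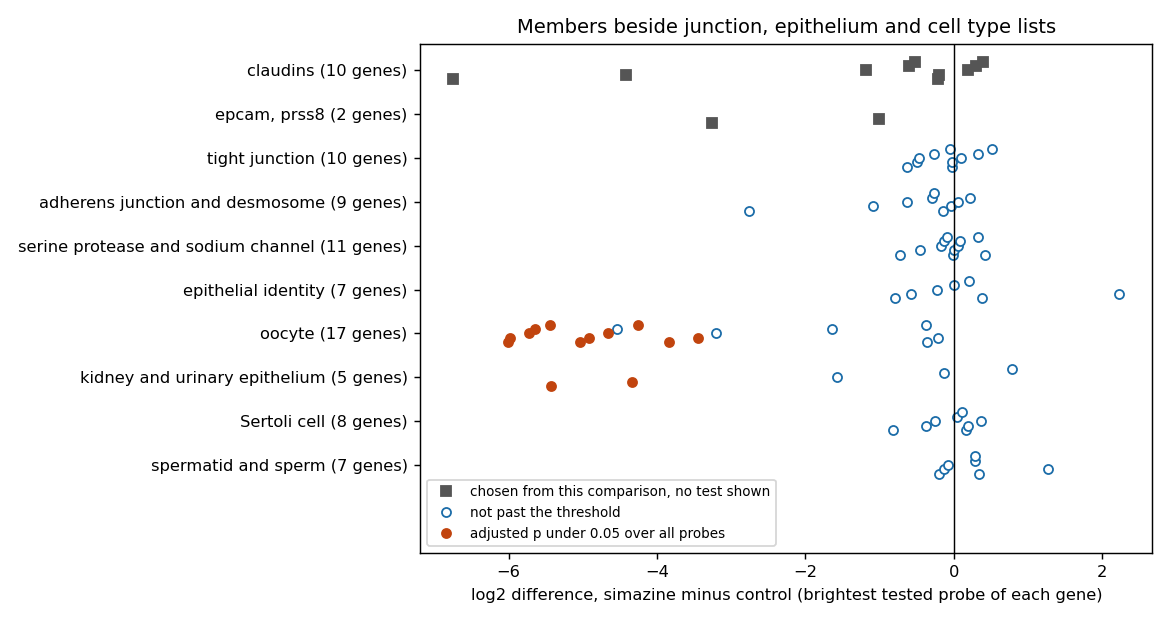
Difference of each gene (log2, simazine minus control, brightest tested probe, horizontal axis) for the claudins, for epcam and prss8, for 4 lists of junction, protease and epithelium genes and for 4 lists of cell type markers; filled circles passed an adjusted p of 0.05 over all probes tested, and squares are the genes chosen from this comparison, for which no test is shown. None of the junction, protease and epithelium genes passed, while 11 of 17 oocyte genes and 2 of 5 kidney and urinary genes did, all of them lower in simazine testes. The lists were drawn up with earlier results of these data known.

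Genes of 2 marker lists, of oocytes and of kidney and urinary epithelium, fell as well. Both lists were drawn up with earlier results of these data known, so their counts give no independent support. Of 25 oocyte genes listed, 20 were on the array, 17 were tested and 11 fell (limma, adjusted p), against 0.711% of all genes tested, and the list had a median of -4.53. The genes that fell were 42sp50, cx38, foxr1, h1-8, kpna7, npm2, pou5f3.3, wee2, zar1, zp4 and zpax. pou5f3.3, for a POU factor of oocytes, had -3.86, -3.34 and -3.54 on simazine 1, 2 and 3, against 2.45 and 2.40 on control 1 and 2 (difference -6.01, limma adjusted p = 0.00981). zp4, for an egg coat protein, differed by -5.98 (limma adjusted p = 0.0444) and npm2, for a nucleoplasmin of the oocyte nucleus, by -3.45 (limma adjusted p = 0.0263). The groups did not overlap on any of these 3 probes, which were called on these same arrays. With slide as a block zp4 lost its call (limma adjusted p = 0.0526), and the other 10 passed. kpna7 differed by -5.65 on its tested probe and by -1.0 on a brighter probe in a distorted area. The tested zpax probe, well above background on 1 simazine array, differed by -5.03, and a brighter zpax probe in a distorted area by -3.96. The summed level of the list, as a percent of each array's 75th percentile, was 5918% to 14563% in simazine testes and 15169% to 18799% in control testes. Its brightest genes were dazl and ccnb1.2, which dividing germ cells also express, with differences of -0.38 and -0.36. Most of the sum on every array came from dazl and ccnb1.2, so it says little about the other oocyte genes. The part of oocyte RNA in the cldn6.1, cldn6.2, epcam and prss8 differences was not tested.

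Of 14 kidney and urinary epithelium genes listed, 6 were on the array and 5 were tested, and the uroplakin genes upk1a and upk3a fell, against 0.711% of all genes. upk3a, which is also known from the Xenopus egg surface, had -4.50, -4.30 and -4.41 in simazine testes, against 1.48 and 0.56 in control testes. The differences were -5.42 for upk3a and -4.33 for upk1a, both with a limma adjusted p of 0.0146. The summed level of this list was 31.5% to 45.2% in simazine testes and 336% to 479% in control testes. In control testes that sum came mostly from upk3a and upk1a, its brightest genes, so it says little about the other genes of the list. The part of the list in the result was not tested. No probe of the whole table passed when control 1, control 2, simazine 1 or simazine 3 was left out, and 1 passed with marked spots left out, so these settings end the calls of oocyte and uroplakin genes. On the arrays as given, the groups were apart for all the oocyte and uroplakin genes that fell. Of all probes tested, 6.85% were lower without overlap. These genes were called on the same arrays, so nothing further is read from this separation.

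In the other 8 marker lists no gene was called. The nearest to the threshold were prss3, a trypsin gene of the intestine and pancreas list, and nanos1, a translation regulator of the germ line list. prss3 had -4.74, -5.22 and -5.10 in simazine testes, against -7.41 and -7.50 in control testes, a difference of 2.44 with a limma adjusted p of 0.0678, which was 0.0325 with slide as a block. nanos1 had -6.86, -6.08 and -8.17 in simazine testes, against -2.43 and -2.43 in control testes, a difference of -4.61 (limma adjusted p = 0.0923), and was well above background on 1 simazine array. Neither gene's groups overlapped, as for 14.4% of all probes tested, and both genes were picked here by their p-values on these arrays. The 4 tested intestine and pancreas genes had a median of 0.71 and summed to 57.8% to 65.2% in simazine testes and 41.1% to 46.9% in control testes, and cela3b, for an elastase, had 1.02 (limma, adjusted p = 0.814), while cpa1 had 0.40 and vil1 -0.00. Genes listed for cells of the testis differed in brightness. The 2 tested Leydig cell genes summed to 78.2% to 81.7% in simazine testes and 72.8% to 86.0% in control testes. The Sertoli cell, germ line and flagellar genes named next were picked for their high mean level and were bright in all samples. The Sertoli cell genes sox9 and dmrt1 had levels of 3.38 or higher on every array, the germ line gene ddx4 had 5.98 or higher, and the flagellar gene spag6 had 5.06 or higher. Whether the make-up of the tissue was the same in both groups was not tested. The 8 tested Sertoli cell genes, which include cldn5, summed to 5883% to 6678% in simazine testes and 5857% to 6033% in control testes. The 4 tested epidermis genes summed to 27.2% to 40.3% in simazine testes and 30.7% to 31.5% in control testes. The aromatase gene cyp19a1 of the ovary soma list had a difference of -0.61, and wnt4 of the same list had -0.09 (limma, adjusted p = 1 for both). The Leydig cell genes nr5a1 and cyp17a1 had -0.29 and 0.66, and the blood gene hba1 had 0.06.

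Among 6597 other named genes, 6 were named as nearest in pattern to cldn6.1, by the smallest root mean square difference between log2 levels centred on each gene's mean over the 5 arrays. h2ac17, a histone gene, was nearest at 0.38, then grhpr.2, a metabolic reductase, at 0.44, and zfp36l2.2, an RNA-binding protein gene, at 0.51. The zfp36l2.2 probe was well above background on only 1 simazine array. pou5f3.3 followed at 0.67, and zp4 and upk3a at 0.72 each. h2ac17 had -4.03, -3.99 and -5.01 on simazine 1, 2 and 3, against 2.56 and 1.25 on control 1 and 2. The 6 genes were picked for their likeness to cldn6.1 on these same arrays, so nothing further is read from it. The measure is not scaled and so depends on the size of the difference. By the same measure prss8 ranked at place 40, at 1.76, and epcam at place 178, at 2.85, so their smaller gaps set them apart from cldn6.1.

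**Figure D4:**
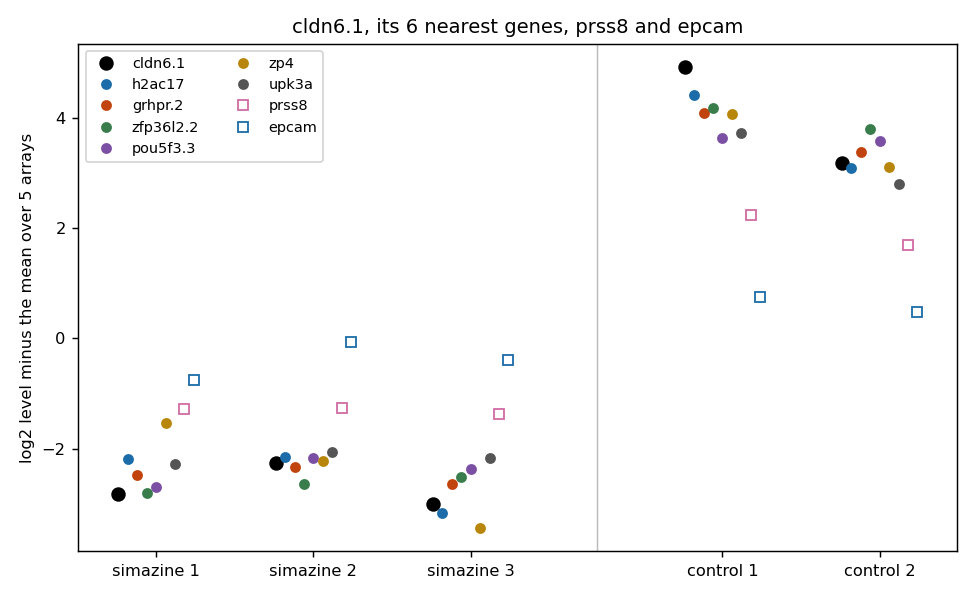
Log2 level minus each gene's mean over the 5 arrays (vertical axis) on the 3 simazine and 2 control arrays for cldn6.1, its 6 nearest genes (circles), prss8 and epcam (open squares). On both groups of arrays cldn6.1 and the 6 genes lie together, which is how the 6 were chosen. prss8 lies nearer to 0 and epcam nearest.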

How the data were processed

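Per the labels, the RNA of each of the 5 testis samples was labelled with Cy3 and read on its own one-colour array. The intensity values are the processed signals the authors deposited; per the file headers they were background-subtracted by the scanner software (version 10.7.3.1 of Agilent's Feature Extraction), and the headers also record a correction of a multiplicative trend on the 3 arrays of slide 2 only. The authors also deposited log2 values of 27228 probes, with medians of 0.958, 1.02 and 0.949 for simazine 1 to 3 and 1.06 and 0.951 for control 1 and 2. At least 99.3% of them lie within 0.01 of the log2 processed signal minus 1 constant per array, and which statistic set that constant is unknown.

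Each array's log2 processed signal was set relative to its 75th percentile. Control spots were left out, spots of 1 probe averaged, and marked and saturated spots kept. The local deviation of a spot from the 5-array median was the median over 5 rows and 9 columns, centred per array, and spots over 0.5 on any array were left out (11190). Probes well above background on at least 2 arrays were fitted as simazine minus control with limma 3.58.1 (lmFit, eBayes) in R 4.3.3, without covariates, with Benjamini-Hochberg adjustment over all 26995 probes and a threshold of 0.05, after a test on simulated data. Accessions were named through a RefSeq table of Xenopus_laevis_v10.1, which matched 10012 of 36331. Homeologs were merged and a gene was its brightest tested probe. Genes named were all claudins, epcam and prss8; of each pathway list the genes past the threshold, filled to 4 by the smallest unadjusted p; of each marker list the 2 brightest; every oocyte gene past the threshold; and the 6 genes nearest to cldn6.1. Other genes named in passing were chosen after their values were seen. The genes and lists were chosen with earlier results of these data known. Alternatives covered marked spots, distorted areas, slide, scaling, background, dim probes, probe choice, array weights and leaving out each array. With 5 arrays, their number sets the precision.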

Additional observations from a re-analysis of the deposited data

How the results depend on the processing

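The count of probes called by limma, 108 as reported, depended strongly on the processing. It was 1 with marked spots left out, whether distorted areas were kept or not, 372 with distorted areas kept, 258 with slide as a block, 0 within slide 2 alone (1677 at an unadjusted p under 0.05), 17 with normexp and 43 with no filter on dim probes. Leaving out 1 array gave 0 to 53 probes: 53 without simazine 2, and 0 without simazine 1, simazine 3, control 1 or control 2, where 733, 741, 724 and 819 probes had an unadjusted p under 0.05. The cause was not tested, beyond there being fewer arrays. The claudin genes lower by 1 or more numbered 3 or 4 in every setting run. The median of the claudin genes, -0.37 as reported, was 0.047 on slide 1 alone and 0.011 with normexp. In the same settings cldn18 had 0.43 and 0.57 and cldn1 had 0.16 and 0.31, against -0.21 and -0.61 as reported. Other claudins changed sign between settings too. The tested cldn12.L probe ran from -0.35 to 1.13, cldn12.S from -0.77 to 0.34, cldn14 from -0.58 to 1.05 and cldn5 from -0.08 to 0.45. No junction, protease or epithelium gene was called in either direction in any of the 20 other settings with a test, where 0 to 6 of them had an unadjusted p under 0.05.

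cldn6.1.S ran from -7.61 to -5.87 over its 22 settings, with -5.87 without control 1 and -7.61 without control 2. The brightest cldn6.2.S probe ran from -4.60 to -4.15 over 20 settings. The brighter prss8 probe ran from -3.54 to -2.23, the last with normexp, where the dimmer prss8 probe gave -0.71. The brightest epcam probe ran from -1.25 to -0.80 over 19 settings, and the dimmest epcam.L probe, at -0.70, gave 0.06 with marked spots left out. The brightest probes of epcam and cldn6.2.S and the undistorted cldn6.1.L probe have no value with marked spots left out. Both of their control spots are marked, so their ranges do not cover that setting. cldn4 ran from -1.39 to -1.01. No paired analysis was possible because the labels give no replicate numbers shared between the groups; slide, which the file headers give, was the block used. Signal over background limits the dim probes of cldn1, cldn14, cldn18 and cldn12.S, which were not well above background on every array.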
